A study of Mus musculus with 9 samples.

Results

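The infarcted mouse heart 28 d after its left anterior descending coronary artery (LAD) was ligated was compared with the sham-operated heart across all genes. The comparison uses the 3 libraries whose titles place them at 28 d after myocardial infarction and the 3 titled as sham, 6 of the 9 libraries in all. The other 3 libraries, taken at 7 d, helped to estimate the spread between replicates and serve a later comparison. Every mouse was a male C57BL/6JR animal, 8 weeks old at inclusion, and each group had 3 mice. In the infarct group the chest was opened on the left under isoflurane and the artery was tied. Sham mice went through the same anaesthesia and opening of the chest without the tie, so both groups share that injury. The labels give the tissue only as heart. Whether the sequenced piece held scar, border zone or distant muscle, when the sham hearts were taken and at what hour any heart was collected is not given in the sources used here.

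As background, tying the artery starves the muscle downstream of it, and the dead muscle is cleared by immune cells and replaced over weeks by a collagen scar laid down by fibroblasts. The surviving cardiomyocytes then carry a higher load, and they are known to turn on genes of the fetal heart and to burn less fatty acid. The heart is rich in mitochondria, so genes of respiration and contraction make up much of its RNA.

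RNA was sequenced from bulk tissue, so fewer cells of a type and less RNA per cell cannot be told apart in any value below. The counts deposited for the 6 libraries summed to between 12351525 and 15770389. Levels are CPM, counts scaled to a common library total, after scaling by the trimmed mean of M values (TMM), and the 3 values of a group are given in the order of the replicate numbers. Changes are log2 fold changes, 28 d over sham, from edgeR's quasi-likelihood test, and "rose" or "fell" means that the p adjusted over all tested genes was under 0.05. The sham hearts hardly differed from each other, with a biological coefficient of variation of 2.73% against 24.2% among the hearts at 28 d. The chi-square per degree of freedom between paired libraries grows with differences beyond counting noise. It was 1.64 to 1.76 in sham and 29.7 to 67.4 at 28 d. Sham libraries thus differed by little more than counting noise, and whether they hold RNA of separate mice was not tested. The first principal component, computed over all libraries with those at 7 d included, held 74.0% of the variance. It placed the sham hearts between -95.5 and -93.7 and the 28 d hearts 1, 2 and 3 at -11.4, 5.20 and 26.3. The 7 d hearts lay between 85.6 and 89.3 on it, so the 28 d hearts stood between the other groups. Cardiomyocyte markers were abundant in every library. The atrial markers Myl7, Sln and Bmp10 stayed at or under 1.10 CPM in the 6 libraries, and the lung marker Sftpc was listed at 0. The 1 tested gene of the lung list rose (log2 2.57). The haemoglobin genes Hba-a1 and Hbb-bs were at 0 in all 9 libraries, so they cannot compare blood content between groups. The 2 tested erythroid genes fell, 1 of 2 with library size alone. Of these, Alas2 went from 21.03, 21.15 and 23.66 to 11.88, 5.397 and 10.66 CPM.

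At 28 d the heart had lost RNA of its most abundant genes and gained RNA of many scarcer ones. Of 14347 genes tested, 4233 rose (29.5%) and 3673 fell (25.6%), and the median log2 fold change of all genes was 0.05. The groups did not overlap for 7778 of the genes that rose or fell (54.2% of those tested). Large changes were mostly rises, since 818 genes rose and 151 fell by over 4-fold, and 104 rose and 3 fell by over 32-fold. Abundance went with direction. Among the 100 most abundant genes 69 fell and 13 rose, whereas among the genes ranked below 5000, 18.7% fell and 32.6% rose. The genes that fell held 60.3 to 60.8% of the counts in the sham hearts and 43.6%, 37.6% and 33.2% in the 28 d hearts 1, 2 and 3. Heart 1 was therefore the nearest to sham and heart 3 the farthest from it, an order that the summed levels of the sarcomere and respiratory lists below shared. Of the 10 most abundant genes at 28 d, Nppa, Ankrd1 and Myh7 were not among the 10 most abundant in sham hearts. Scaling by library size alone, without TMM, moved the median of all genes from 0.05 to 0.30 and gave 6479 rises and 2278 falls, so 74.0% of the calls were rises in place of 53.5%. With the 3 sham libraries summed to 1, 1828 genes rose and 1889 fell.

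**Figure D1:**
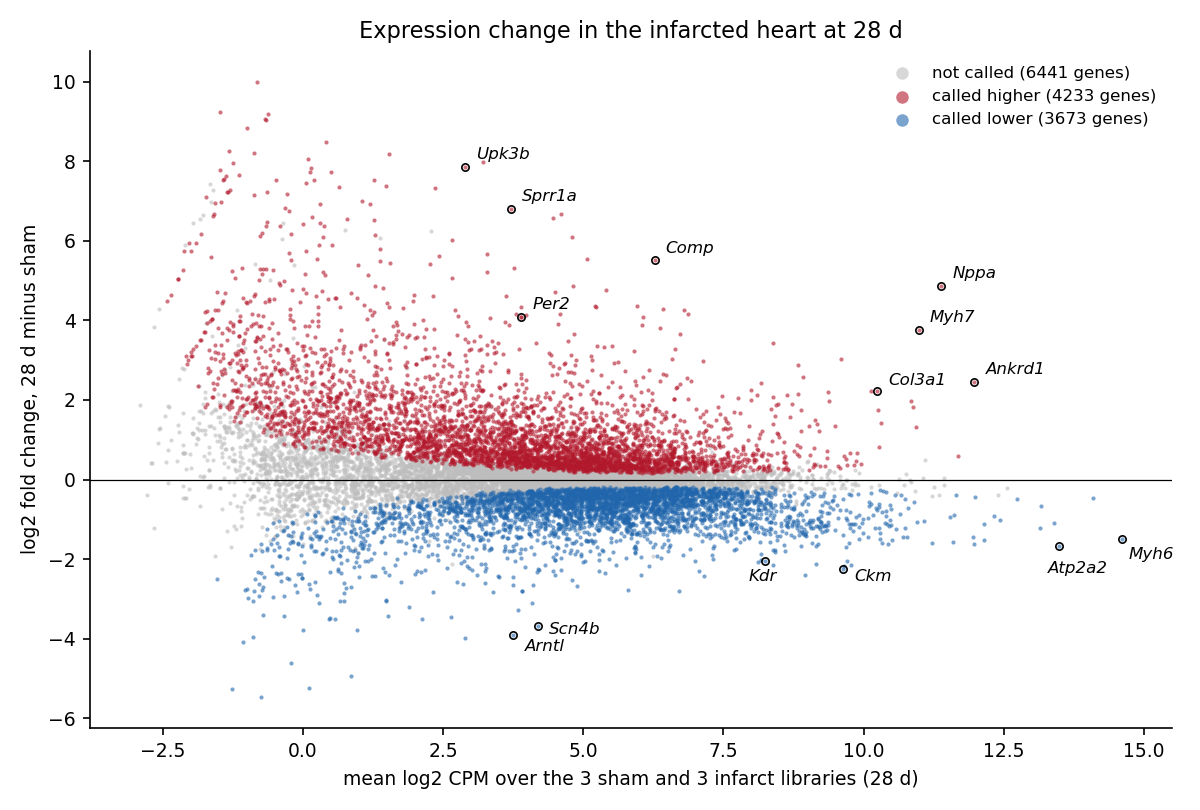
Each point is 1 of the 14347 tested genes, with the mean log2 CPM of the 6 libraries on the x axis and the log2 fold change, 28 d minus sham, on the y axis; red points were called higher and blue points lower. The points at the right edge, the most abundant genes, lie mainly below 0, while the largest rises are at low to middle abundance.

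The plot of change against abundance names some of the genes at its edges. Among the 12 largest rises of named genes whose groups lay apart and whose mean log2 CPM was 1 or more were genes of the mesothelium, the sheet of cells that covers the heart, namely Upk3b, Upk1b, Lrrn4 and Nkain4. Their log2 changes were 7.85, 7.53, 7.32 and 6.93, and 6.42, 5.98, 5.39 and 5.27 without heart 3. Others were the stress protein gene Sprr1a, the matrix genes Col6a5, Angptl7 and Cilp2, and the plasma cell gene Jchain, described below. The 12 largest falls under the same rule included Scn4b and Kcnv2, which encode channel subunits, the clock activator Arntl, the acyl-CoA thioesterase gene Acot1 and the muscle fructose-bisphosphatase gene Fbp2 (-3.27, and -4.15 without heart 1).

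Genes of the fetal and wall stress programme mostly rose. Of 18 tested members 12 rose and 1 fell, with a median log2 change of 1.12. Nppa, the precursor of atrial natriuretic peptide, stood at 467, 502 and 532 CPM in sham hearts and at 11543, 17362 and 14532 CPM at 28 d. The lowest infarcted heart was far above the highest sham heart, a log2 change of 4.86 ± 0.23 (SE, adjusted p = 1.35e-06). Nppb, the precursor of the B-type peptide and a serum marker of heart failure, moved from 381, 404 and 379.8 to 855, 981 and 889.6 CPM, a smaller rise of 1.23 ± 0.09 on the log2 scale (adjusted p = 1.2e-05). Myh7, the slow myosin heavy chain that the fetal mouse ventricle uses, moved from 591, 651 and 459 to 5943, 11528 and 5702 CPM (log2 3.77 ± 0.33, adjusted p = 3.71e-05), with heart 2 above the other two.

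Proteins that respond to stretch and injury gave the same picture. Ankrd1, a titin-bound protein that moves between the sarcomere and the nucleus, rose from 1904, 1657 and 1621 to 8445, 11442 and 8508 CPM. Xirp2, an actin-binding protein of the intercalated disc, rose from 1053, 995 and 967 to 3499.9, 3889.6 and 3239.7 CPM. Sprr1a, a cross-linked envelope protein first known from skin, was near 1 CPM in every sham heart and at 120.2, 125 and 159 CPM at 28 d, a 112-fold difference. Uchl1, a deubiquitinase, rose by 3.65 and the stress cytokine Gdf15 by 4.62 on the log2 scale. Of these stress genes Nppa, Nppb, Myh7, Ankrd1, Xirp2 and Gdf15 were highest in heart 2, and Sprr1a and Uchl1 in heart 3. Tnnt1, the slow skeletal troponin T, was the member that fell (-1.34). Acta1, skeletal alpha-actin and another fetal gene, did not pass the test: heart 1 stood at 2035 CPM, above all sham hearts (1482, 1014 and 939), and hearts 2 and 3 at 462 and 362 CPM, below them. Without heart 1 its log2 change was -1.48, past the threshold.

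The hexamer CATTCC, an MCAT element that binds TEAD factors, was described in promoters of muscle genes. Both strands of each RefSeq promoter sequence were searched for it. That sequence holds the 250 bases before the start site and some bases after it, so a counted match can lie on either side. The element was found for 6 of the 19 fetal and stress genes with a RefSeq promoter entry. The shares were 16.6% of all 27025 entries and 15.8% of those of the genes that rose. The windows below, from RefSeq on GRCm38.p6, are shown because Myh7 and Ankrd1 were among the most abundant of the genes that rose. Each is written 5′ to 3′ on the gene's strand, which is the minus strand for both, and capitals mark the element as its reverse complement.
Myh7, chr14:54994792-54994857: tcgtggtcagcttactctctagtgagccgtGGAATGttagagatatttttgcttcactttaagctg
Ankrd1, chr19:36119932-36120084: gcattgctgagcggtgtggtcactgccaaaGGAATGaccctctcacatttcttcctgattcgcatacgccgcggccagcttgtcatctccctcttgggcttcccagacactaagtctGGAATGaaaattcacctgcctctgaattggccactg
In these windows, which stop before the gene body, the element lies 195 bases before the start of Myh7. The 2 copies shown for Ankrd1 lie 204 and 117 bases before its start. These letters describe the window and do not show that a factor binds there.

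Adult contractile genes fell. Of 30 tested sarcomere genes 16 fell and 2 rose, with a median of -0.47, and the summed level of the list went from 149720 to 153436 CPM in sham hearts to 106543, 87702 and 68343 CPM at 28 d. Myh6, the adult myosin heavy chain and the most abundant sarcomere gene of the mouse ventricle, stood at 43545, 41393 and 44535 CPM in sham hearts and at 22275, 13714 and 10275 CPM at 28 d (log2 -1.48 ± 0.27, adjusted p = 0.00143). All infarcted hearts were below all sham hearts, and heart 3 had less than heart 1. Cardiac troponin I, Tnni3, fell by 1.57 and the ventricular light chains Myl3 and Myl2 by 1.45 and 1.21. Titin, Ttn, the giant spring of the sarcomere, had 6357, 6182 and 6162 CPM in sham hearts and 5814, 4633 and 3755 CPM at 28 d. It missed the threshold (log2 -0.40, adjusted p = 0.0535), which it passed without heart 1 (-0.58, adjusted p = 0.00313). With all hearts kept Ttn passed in DESeq2 (adjusted p = 0.00761) and voom (0.0167), and missed with library size alone (-0.16, adjusted p = 0.298). The members that rose were Synpo2l (1.39), a Z-disc protein, and the intermediate filament desmin, Des (0.59).

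Calcium handling and excitation fell in more members than they rose. In calcium handling 13 of 19 genes fell and 1 rose (median -0.58). Atp2a2, the pump SERCA2a that refills the sarcoplasmic reticulum, went from 21065, 20467 and 21492 to 9601, 6119.5 and 4249.8 CPM (log2 -1.66 ± 0.26, adjusted p = 0.000646). Heart 3 held the least and heart 1 the most of the infarcted hearts, and both were far below sham. Hrc, a calcium-binding protein of the reticulum, fell by 2.15, the pump inhibitor phospholamban, Pln, by 1.02 and the release channel Ryr2 by 0.87. Fkbp1b, which binds the release channel, rose (1.55) at a low level of 2.39, 3.23 and 2.67 CPM.

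Among ion channels and gap junctions 17 of 24 fell and 2 rose (median -0.82). Scn4b, a beta subunit of the sodium channel, fell from 85.3, 79.5 and 85.8 to 15.8, 1.30 and 2.61 CPM (log2 -3.69, and -5.41 without heart 1, which held most of what was left). Kcnip2, a subunit of the channel for the transient outward potassium current, fell from 266, 268 and 272 to 104, 49.7 and 41.4 CPM, and Kcnj2, the inward rectifier that holds the resting potential, fell by 2.04. The gap junction gene Gja1 (-0.23, 0.01 with library size alone) did not pass. Gja5, the connexin of conduction tissue and arteries, rose (1.04). In the adrenergic list 9 of 16 fell and 2 rose. The beta-1 receptor Adrb1 fell by 1.29 and the alpha-1 receptor Adra1b by 1.86, while the receptor kinase Grk5 rose by 1.26. For the intercalated disc 8 of 14 fell and 0 rose, with Dsc2 and Dsg2, the cadherins of desmosomes, at -1.02 and -0.76. For cardiac transcription factors 7 of 15 fell and 1 rose, led by Irx4 (-1.20) and Smyd1 (-1.18), and for muscle ubiquitin ligases 7 of 12 fell and 1 rose. With library size alone 3 of 14 disc genes and 2 of 15 transcription factors fell.

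Pairs of isoforms were compared as the ratio of their CPM within a library, which does not depend on scaling. Lengths were not corrected, so a change of a ratio is meaningful and its level is not. Myh7 over Myh6 was 0.0132 ± 0.00272 (SD, n = 3) in sham hearts and 0.554 ± 0.287 at 28 d. Nppa over Nppb went from 1.29 ± 0.0960 to 15.8 ± 2.14. The general form gained on the form typical of heart or muscle in 7 pairs, among them the brain over the muscle creatine kinase (Ckb over Ckm) from 0.0349 to 0.220, the basal over the insulin-responsive glucose transporter (Slc2a1 over Slc2a4) from 0.0308 to 0.261, and Ldha over Ldhb from 0.409 to 1.18. The other 4 were subunits 7a and 6a of cytochrome oxidase (Cox7a2 over Cox7a1 from 0.519 to 1.34, Cox6a1 over Cox6a2 from 0.0542 to 0.156), phosphoglycerate mutase (Pgam1 over Pgam2 from 0.0544 to 0.211) and alpha-actinin (Actn1 over Actn2 from 0.0177 to 0.0559). In none of these 9 pairs did the groups overlap. For creatine kinase the larger change was in Ckm (-2.25, and -2.98 without heart 1), with Ckb at 0.06 (-0.07 without heart 2, and 0.31, past the threshold with an adjusted p of 0.0394, under library size alone), and for lactate dehydrogenase in Ldhb (-1.60), with Ldha at -0.11 (0.13 with library size alone). With TMM neither Ckb nor Ldha passed the test.

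Genes of mitochondrial respiration fell almost without exception. All 34 tested subunits and assembly genes of respiratory complex I fell (median -1.18), as did 40 of 41 genes of complexes II to V (-1.12) and all 25 genes of the tricarboxylic acid cycle and pyruvate dehydrogenase (-1.19), against 25.6% of all genes tested. The summed level of complex I was 15681, 15759 and 16158 CPM in sham hearts and 8802, 6541 and 5491 CPM at 28 d. Cox8a was the gene of complexes II to V that did not pass (0.25), though it passed as higher in 4 of the alternatives, with library size alone among them. Cox7a1, the muscle form of a cytochrome oxidase subunit, fell from 687, 699 and 772 to 245, 136 and 109 CPM, and the mitochondrial isocitrate dehydrogenase Idh2 fell from 2919.8, 3027 and 2907 to 1506, 999 and 739.8 CPM. Both share the order of the 3 hearts seen for Myh6.

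Fatty acid uptake and oxidation fell further. Of 31 tested genes 27 fell and 1 rose, with a median of -1.52. Acaa2, the thiolase that ends each round of beta-oxidation, went from 1167, 1163 and 1222 to 347, 175 and 153 CPM (log2 -2.40 ± 0.27, adjusted p = 0.000144). The isomerase Eci1 fell by 1.89, the dienoyl-CoA reductase Decr1 by 1.82, lipoprotein lipase, Lpl, by 1.52 and the fatty acid carrier Cd36 by 1.51. Acot1, an acyl-CoA thioesterase induced by fatty acids, fell from 18.7, 21.1 and 20.7 to 2.19, 1.43 and 1.91 CPM with little spread. Cpt1a, the liver form of the carnitine transferase, was the member that rose (0.29) and lost the call without sham replicate 2 (0.26, adjusted p = 0.0629). Breakdown of branched-chain amino acids and ketones had 20 of 22 genes lower and 0 higher, including the phosphatase Ppm1k (-1.72), which switches on the dehydrogenase of that pathway, and the thiolase Acat1 (-1.67). In the energy transfer list 9 of 12 fell and 0 rose, among them myoglobin, Mb, from 15979, 15827 and 15966 to 9451, 7423 and 5446 CPM and the adenine nucleotide carrier Slc25a4 (-1.63).

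Regulators of these genes were lower as well. Of 18 genes of the PPAR, ERR and PGC-1 list 13 fell and 1 rose, with a median of -0.51. Ppargc1a, the coactivator PGC-1alpha that drives mitochondrial biogenesis, had 111, 109 and 128 CPM in sham hearts and 69.0, 66.3 and 44.6 CPM at 28 d (log2 -0.95 ± 0.16, adjusted p = 0.000809). Its muscle partner Perm1 fell by 1.18 and the retinoid receptor Rxrg by 1.83, while the corepressor Nrip1 rose by 0.56. Pdk4, the kinase that shuts off pyruvate dehydrogenase, fell from 593, 609 and 602 to 252, 244 and 181 CPM. The element TCAAGGTCA, bound by ERR receptors, was searched in the same promoter sequences, which run past the start site. It was found for 0 of 31 complex I genes, 2 of 31 genes of complexes II to V and 0 of 24 fatty acid genes. Of all entries 0.466% held it.

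Glycolysis was mixed, with 12 of 26 genes lower and 9 higher, and its median of -0.21 turned to 0.03 with library size alone. The muscle enolase Eno3 fell from 1741, 1789 and 1772 to 677, 346 and 263 CPM and the insulin-responsive transporter Slc2a4 by 1.42. Against them the basal transporter Slc2a1 rose from 16.4, 18.9 and 19.3 to 47.3, 55.1 and 53.8 CPM, the lactate exporter Slc16a3 by 2.69 and Pfkfb3, an activator of glycolysis, by 1.81.

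**Figure D2:**
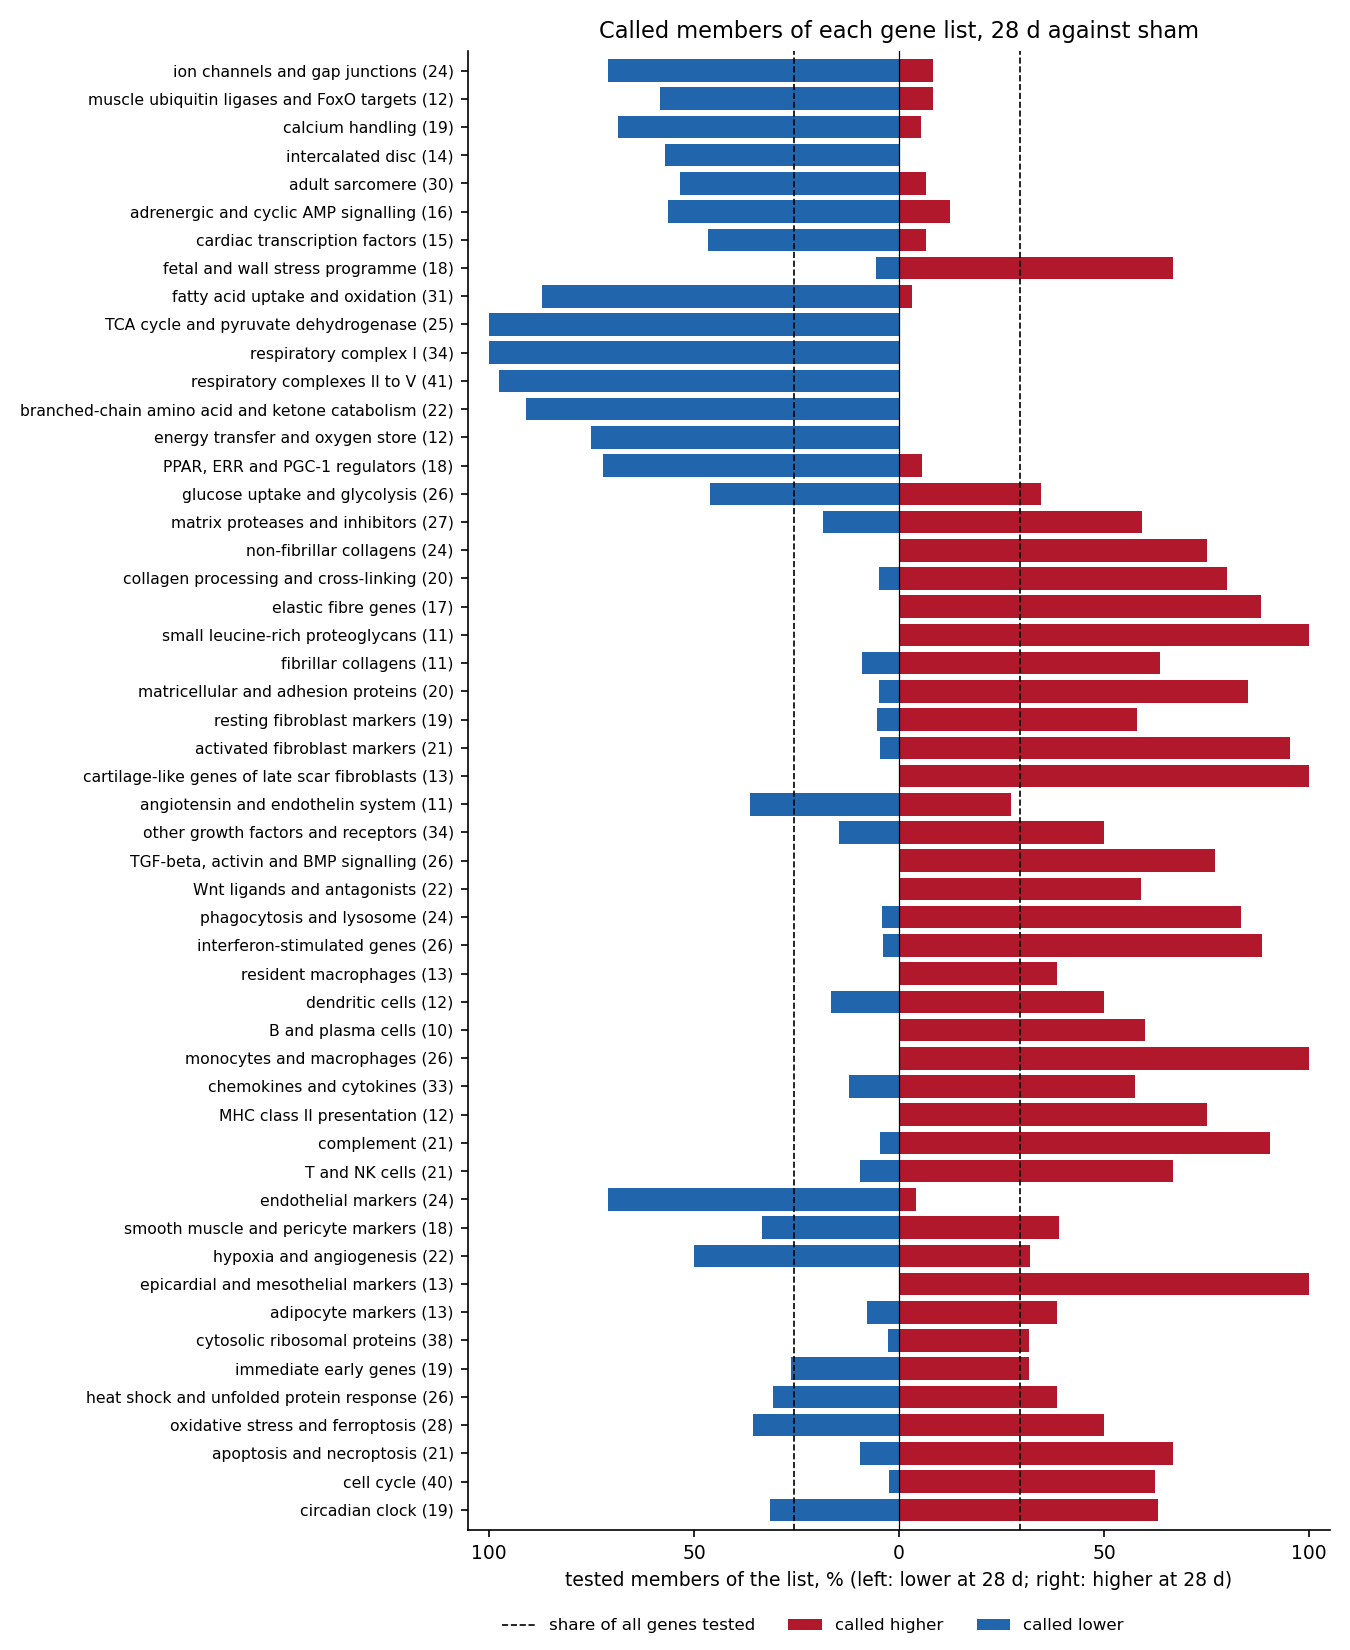
For every gene list with at least 10 tested members the bars give the percentage of tested members that were higher (right, red) or lower (left, blue) at 28 d than in sham, with the number tested in parentheses; dashed lines mark 29.5% and 25.6%, the shares of all genes tested. Metabolic and contractile lists extend to the left, matrix, fibroblast and immune lists to the right.

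The bar plot of lists shows the turn from muscle to matrix. Collagens of the scar were still above sham at 28 d. Of 11 fibrillar collagen genes 7 rose and 1 fell (median 1.78). Col3a1, the chain of type III collagen, stood at 595, 559 and 569.7 CPM in sham hearts and 1771, 2550.0 and 3676 CPM at 28 d (log2 2.21 ± 0.24, adjusted p = 0.000113). Col1a1, a chain of type I collagen, went from 349.5, 345 and 331 to 1019.7, 1351 and 1633 CPM (log2 1.96 ± 0.19, adjusted p = 6.21e-05). Both were highest in heart 3, the heart with the least Myh6. Their ratio, Col1a1 over Col3a1, was 0.595 ± 0.0200 (SD, n = 3) in sham hearts and 0.517 ± 0.0667 at 28 d, without overlap. Col5a3 was the fibrillar chain that fell (-1.02).

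Other collagens rose in 18 of 24 cases, with 0 lower. Col8a2, a short-chain collagen, rose from 2.88, 3.31 and 3.55 to 60.9, 79.3 and 57.7 CPM and Col12a1, which links fibrils, from 5.5, 5.89 and 5.83 to 60.2, 113 and 136 CPM. Col6a5 had the largest fitted rise under the same rule on abundance and overlap (8.17, and 6.18 without heart 3). It rests on 6 counts in the sham hearts together and on 14.7, 12 and 131 CPM at 28 d, with heart 3 far above the others. Collagen processing rose in 16 of 20 genes and fell in 1, with the cross-linking oxidases Lox, Loxl3 and Loxl4 at 2.32, 2.68 and 2.91.

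Small leucine-rich proteoglycans, which space collagen fibrils, rose in all 11 tested genes (median 1.75). Biglycan, Bgn, went from 526, 541 and 499 to 2361, 2884 and 2099 CPM. Decorin, Dcn, went from 696, 698 and 720.3 to 1407, 1679.8 and 4025 CPM (log2 1.75, and 1.13 without heart 3, which had more of it than the other hearts). Fibromodulin, Fmod, which binds type I collagen, had 5.5, 4.78 and 4.39 CPM in sham hearts and 180.3, 282 and 216 CPM at 28 d, a 46.2-fold difference. It belongs also to a list of cartilage-like genes described in late scar fibroblasts, where all 13 tested genes rose with a median of 2.55. In that list Comp, a pentameric protein of cartilage and tendon, rose from 13.9, 9.84 and 11.6 to 440.5, 787 and 376 CPM, Angptl7 from 4.28, 3.13 and 2.70 to 187, 289 and 214 CPM and Thbs4 from 10.5, 6.62 and 8.37 to 148, 229 and 138 CPM. Heart 2, not heart 3, was highest in these genes.

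Matricellular proteins, which sit in the matrix and signal to cells, rose in 17 of 20 genes and fell in 1 (median 1.97). Ctgf, a growth factor made under TGF-beta and stretch, rose from 109, 103 and 97.0 to 962, 1331 and 1018 CPM, and Wisp2 by 3.88. Elastic fibre genes rose in 15 of 17 with 0 lower, led by Ltbp2 (4.28), a protein of microfibrils, and Mfap4 (3.28).

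Markers of activated fibroblasts rose in 20 of 21 genes, with a median of 1.87. Postn, periostin, the standard marker of the activated cardiac fibroblast, went from 129, 124 and 127 to 603, 892 and 536 CPM (log2 2.42 ± 0.20, adjusted p = 2.73e-05). Acta2, the smooth muscle actin of myofibroblasts and of arteries, rose less, from 229, 197 and 222 to 319.7, 362 and 336 CPM (log2 0.65 ± 0.11, adjusted p = 0.00115). Itgbl1, a secreted protein related to integrins, rose by 2.96, and the cadherin Cdh11 by 2.79 (1.65 without heart 3). Lrrc15, a membrane protein used as a myofibroblast marker in tumours, went against the list and fell from 53.1, 54.5 and 55.1 to 10.8, 2.11 and 6.14 CPM (log2 -3.10, and -3.71 without heart 1). Resting fibroblast markers rose in 11 of 19 genes and fell in 1, among them Mgp (2.88), an inhibitor of calcification, and the secreted glutathione peroxidase Gpx3 (2.58).

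Growth factor pathways of scarring rose in many members. In the TGF-beta, activin and BMP list 20 of 26 rose and 0 fell. Tgfb2 rose from 16.4, 19.3 and 14.8 to 115, 138 and 135 CPM and Tgfb3 from 33.6, 29.9 and 28.5 to 114, 129 and 178 CPM. Tgfb1, the ligand most often linked to fibrosis, went from 42.6, 41.9 and 42.7 to 43.1, 53.8 and 49.2 CPM and missed the threshold (log2 0.20, adjusted p = 0.107). Tgfb1 passed without heart 1 (0.27, adjusted p = 0.0286) and, with all hearts kept, under library size alone (0.45, adjusted p = 0.00619). Bmp2 rose by 3.18 and the BMP antagonist Chrdl1 from 0.262, 0.276 and 0.423 to 12.8, 8.5 and 13.2 CPM. In the Wnt list 13 of 22 rose and 0 fell. They were the ligands Wnt4, Wnt5b and Wnt11, the agonists Rspo1 and Rspo3, the receptors Fzd1, Fzd2 and Fzd7 and the antagonists Sfrp1, Sfrp2, Sfrp4, Frzb and Dkk3. Rspo1 went from 0.611, 0.184 and 0.0845 to 10, 10 and 43.8 CPM, with heart 3 the highest. Among the antagonists Sfrp2 rose from 14.8, 13.9 and 12.3 to 218, 328 and 302 CPM and Dkk3 from 5.15, 4.97 and 5.49 to 106, 177 and 172 CPM.

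Proteases and their inhibitors rose in 16 of 27 genes and fell in 5. The inhibitor Timp1 rose from 3.75, 3.86 and 3.04 to 30.8, 40.1 and 28.2 CPM and the protease Mmp23 by 2.92, while Mmp15 fell by 1.75 and the collagenase Mmp13 by 2.74 at levels of at most 2.87 CPM. Of other growth factors and receptors 17 of 34 rose and 5 fell. Igfbp6 and Igfbp5, which bind insulin-like growth factors, rose by 3.35 and 2.12 (2.47 and 1.46 without heart 3), and the vessel factor Vegfb fell by 1.13. In the angiotensin and endothelin system 3 of 11 rose and 4 fell, against 29.5% and 25.6% of all genes tested, so these few genes do not set the list apart. Ace, which makes angiotensin II, rose by 0.99, and its receptor Agtr1a fell (-1.14).

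**Figure D3:**
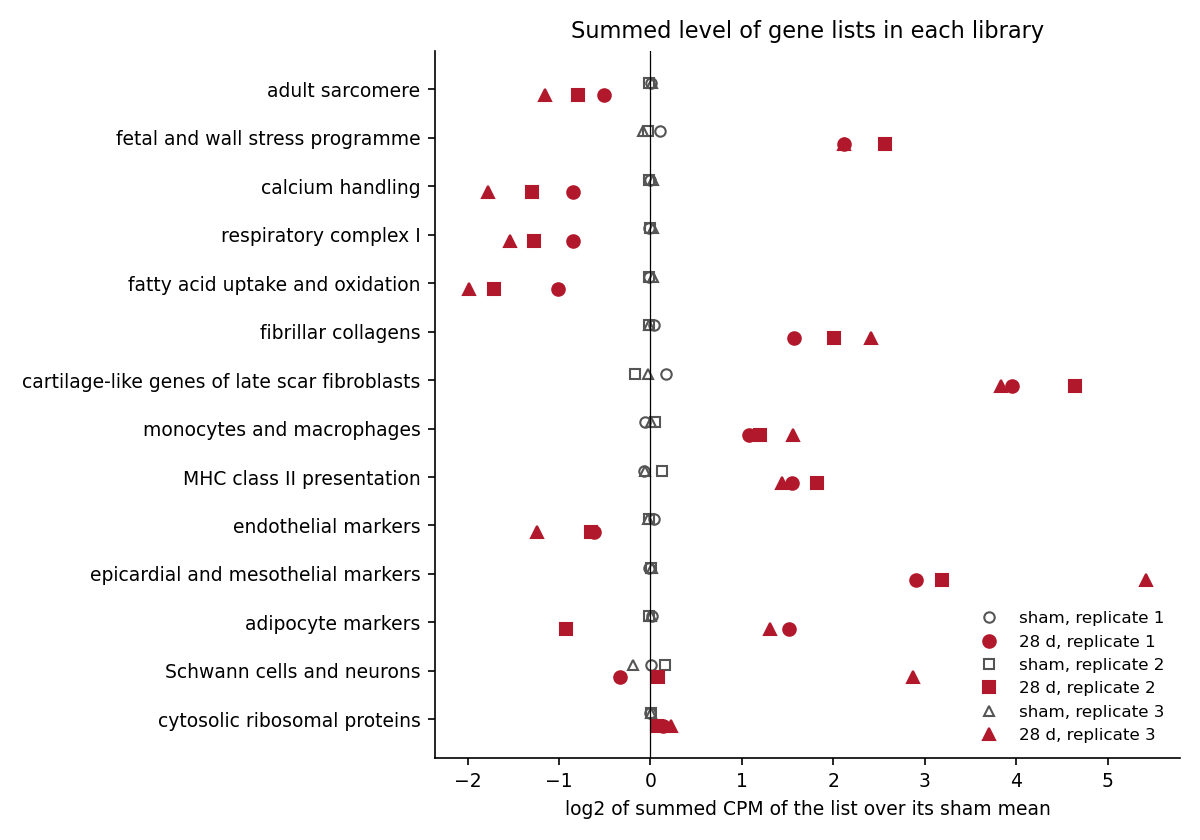
The log2 of the summed CPM of a gene list over its sham mean is plotted on the x axis for each library; open grey symbols are sham hearts, red symbols 28 d hearts, and the shape gives the replicate. Sham hearts sit at 0 while the 28 d hearts spread out, with heart 3 lowest in the contractile and metabolic lists and highest in mesothelial genes, and hearts 1 and 3 high in adipocyte genes.

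Most immune cell genes were above sham. All 26 tested monocyte and macrophage genes rose, with a median of 1.19, and the summed level of the list was 1146, 1236 and 1195 CPM in sham hearts and 2519.9, 2744 and 3511 CPM at 28 d. Cd68, a lysosomal membrane protein of macrophages, went from 14.3, 15 and 12.5 to 25.4, 28.6 and 33.7 CPM (log2 1.07 ± 0.13, adjusted p = 0.000197). Lgals3, galectin-3, was the exception in size, with 6.11, 8.83 and 9.46 CPM in sham hearts and 179, 236 and 251 CPM at 28 d, 27.3-fold higher. Ccr2, the receptor of monocytes that arrive from blood, rose by 1.88, and Trem2 and Gpnmb, known from lipid-laden macrophages, by 1.76 and 1.84. The element GAGGAAGT of the myeloid factor PU.1 was searched on both strands of the promoter sequences, which run past the start site. It was found for 4 of 20 macrophage genes with a RefSeq entry, against 3.69% of all entries. The marker list of resident macrophages rose in 5 of 13 genes with 0 lower, against 29.5% and 25.6% of all genes tested. The count of rises ran from 3 without a sham library to 8 without heart 2, so it does not set this list apart.

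Genes of the MHC class II route of antigen presentation rose in 9 of 12 with 0 lower (median 1.62). The class II chain H2-Ab1 went from 69.0, 74.4 and 65.8 to 229, 276 and 213 CPM, H2-Eb1 from 81.5, 85.6 and 74.9 to 262, 299.9 and 233 CPM and the invariant chain Cd74 from 183, 221 and 190.0 to 555, 721 and 527 CPM. For these genes heart 3 was the lowest of the infarcted hearts. T and NK cell genes rose in 14 of 21 and fell in 2, at low levels, with a summed level of 12.3, 14.3 and 14.3 CPM in sham hearts and 41.2, 39.2 and 26.0 CPM at 28 d. Cd3g, a chain of the T cell receptor complex, rose from 0.262, 0.368 and 0.338 to 2.59, 2.61 and 2.09 CPM. B and plasma cell genes rose in 6 of 10, but in 3 of 10 without sham replicate 2 or heart 1. Jchain, which joins antibody units in plasma cells, had 0.698, 1.01 and 0.930 CPM in sham hearts and 74.9, 9.49 and 88.1 CPM at 28 d, high in hearts 1 and 3 (log2 6.02, adjusted p = 0.00414). Without the libraries rich in the fat gene Adipoq, over 100 CPM, which are hearts 1 and 3 and the 7 d heart 3, its log2 change was 3.41 (adjusted p = 0.0826). That setting leaves heart 2 alone at 28 d, assumed to vary like the other groups, so a call lost or gained in it says little. Neutrophil genes rose in 1 of 5, mast cell genes in 1 of 6 and dendritic cell genes in 6 of 12, where 2 fell, against 29.5% higher and 25.6% lower of all genes tested.

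Complement genes, which tag debris and microbes, rose in 19 of 21 cases and fell in 1, with a median of 1.85. C3, the hub of the cascade, stood at 295, 278 and 315 CPM in sham hearts and 1323, 1319 and 4632 CPM at 28 d (log2 3.04, and 2.16 without heart 3). C4b went from 29.6, 29.2 and 28.0 to 359.6, 328 and 861 CPM (log2 4.16, and 3.57 without heart 3). Heart 3 was the highest for both, and hearts 1 and 2 were also well above sham. Interferon-stimulated genes rose in 23 of 26 and fell in 1, with a median of 0.68. Cxcl10, a chemokine for T cells, rose by 3.66 and the antiviral genes Mx1 and Oas3 by 2.02 and 1.64, while Rsad2 fell by 0.71. Among chemokines and cytokines 19 of 33 rose and 4 fell. The alarmin Il33 went from 3.93, 4.69 and 3.30 to 33.4, 36.7 and 132 CPM (4.09, and 3.15 without heart 3), and Cxcl12, which retains stem and immune cells, fell by 1.19. Phagocytosis and lysosome genes rose in 20 of 24 and fell in 1. Their summed level hardly moved, from 7353, 7407 and 7427 to 7631, 7554 and 7398 CPM. That sum includes the abundant member that fell, Cd36, described above with the fatty acid genes, whose fall offset rises of other members. The unscaled counts of Cd36 were 28533, 26980 and 30311 in sham hearts and 17954, 13131 and 11036 at 28 d. Ctsk, a collagen-cutting cathepsin, rose by 2.25.

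Endothelial genes fell: 17 of 24 were lower and 1 higher, with a median of -0.62 and a summed level of 4429.8, 4278 and 4245 CPM in sham hearts against 2823, 2742 and 1832 CPM at 28 d. Kdr, the main receptor for VEGF, fell from 621, 607 and 627 to 183, 144 and 123 CPM (log2 -2.04 ± 0.14, adjusted p = 9.68e-06). The junction cadherin Cdh5 fell from 542, 530.2 and 519.6 to 264, 220.2 and 129 CPM and Car4, a carbonic anhydrase of capillaries, from 29.5, 32 and 27.6 to 7.57, 2.11 and 2.90 CPM (log2 -2.83, and -3.57 without heart 1). Pecam1 fell less (-0.80). Plvap, which builds the diaphragms of leaky vessels, went the other way, from 15.1, 11.4 and 13.3 to 64.9, 90.9 and 56.1 CPM. Von Willebrand factor, Vwf, did not pass (0.78), with a log2 change of 0.08 without heart 2 and of 1.18, past the threshold, without heart 3. Heart 2 stood at 395 CPM for Vwf, above all sham hearts, and heart 3 at 83.2 CPM, below them.

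Genes of the hypoxia and angiogenesis list rose in 7 of 22, near the 29.5% of all genes tested, and fell in 11, against 25.6%. The endothelial peptide Apln fell by 1.36 and its receptor Aplnr by 1.96, Epas1 by 1.19 and Vegfa by 0.59. Lymphatic markers rose in 6 of 7 genes. Flt4, the receptor for lymphatic growth factors, rose from 44.7, 42.8 and 35.0 to 72.2, 113 and 94.1 CPM and Sema3d from 3.32, 3.31 and 2.62 to 25.5, 33.7 and 44.7 CPM. Prox1, the master factor of lymphatic identity, which is also made in cardiomyocytes, fell by 1.23. Of 18 smooth muscle and pericyte genes 7 rose and 6 fell, near the 29.5% and 25.6% of all genes, and their median of -0.21 turned to 0.03 with library size alone. The contractile genes Tagln (1.71) and Cnn1 (2.53, and 3.17 without sham replicate 1) rose, and the pericyte genes Rgs5 (-1.22), Vtn (-1.79) and Abcc9 (-1.77) fell. Cspg4, another pericyte marker, rose from 55.0, 56.9 and 58.9 to 81.7, 96.6 and 64.1 CPM (0.51).

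The 3 infarcted hearts differed most in genes of tissues around the muscle. Mesothelial and epicardial markers rose in all 13 tested genes, with a median of 5.61, and their summed level was 24.9, 25.2 and 25.4 CPM in sham hearts and 188, 229 and 1074 CPM at 28 d. Some members, such as Bnc1 (2, 0 and 0 counts in sham) and Krt19 (0, 1 and 3), passed the count filter only through infarct libraries. Such genes could hardly be called lower, so the count of rises is no independent support. Upk3b, a uroplakin of the mesothelial surface, went from 0.349, 0.368 and 0.930 to 43.7, 52.6 and 293 CPM, a log2 change of 7.85 ± 1.32 that was 6.42 without heart 3. Wt1, the factor of the epicardium, had 6.28, 6.53 and 6.51 CPM in sham hearts and 11.5, 11.4 and 107 CPM at 28 d (2.75, and 0.83 without heart 3), and its adjusted p of 0.0178 became 0.0566 to 0.0584 when a sham library was left out. Every infarcted heart was above every sham heart for both genes, and heart 3 was above the other infarcted hearts. Heart 3 was also the only infarcted heart with much Mbp, a myelin gene, at 108 CPM (3.39, and 1.38 without heart 3), and with Enpp2, which makes lysophosphatidic acid, at 890.0 CPM. The Schwann cell and neuron list summed to 265 CPM in heart 3 and to 28.9 and 38.4 CPM in hearts 1 and 2, against 36.6, 40.6 and 31.9 CPM in sham hearts.

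Adipocyte genes were high in hearts 1 and 3. Their list summed to 2783, 511 and 2413 CPM at 28 d and to 985, 961 and 974 CPM in sham hearts. Adipoq, the hormone adiponectin, stood at 130.4, 0.496 and 122 CPM at 28 d and at no more than 1.75 CPM in sham hearts. The groups overlapped, since heart 2 was within the sham range, and the difference missed the threshold (log2 6.23 ± 2.44, adjusted p = 0.0529). Of 13 adipocyte genes 5 rose and 1 fell. Heart 2 alone, the 28 d heart left without the Adipoq-rich libraries, gave 0 higher and 5 lower. Cyp2e1 and Hp, a cytochrome and haptoglobin, followed the same hearts, with 453, 2.79 and 332 and 239, 6.76 and 127 CPM at 28 d. RNA of adipocytes, mesothelium and Schwann cells thus differed between the hearts, and its part in the results above was not tested. With heart 2 as the 1 library at 28 d, its spread taken from the other groups, 3607 genes were higher and 3451 lower, and 81.9% of the genes first called were called again.

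**Figure D4:**
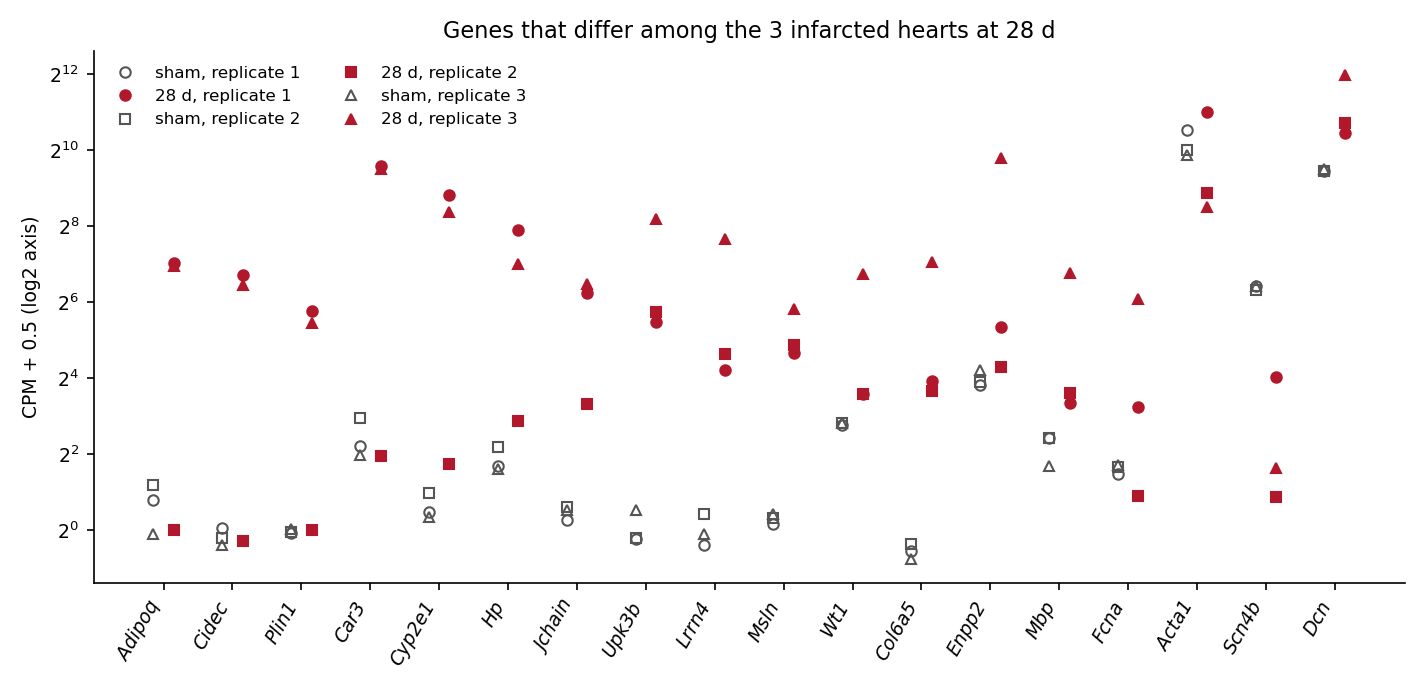
CPM plus 0.5 is shown on a log2 axis for 18 genes that differ among the infarcted hearts; open grey symbols are sham hearts, red symbols 28 d hearts, and the shape gives the replicate. Adipoq to Jchain are high in hearts 1 and 3, and Upk3b to Fcna are highest in heart 3.

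Genes of the circadian clock changed in both directions. In this clock the activators Arntl (BMAL1), Clock and Npas2 drive the Per and Cry repressors, the Rev-erb receptors Nr1d1 and Nr1d2 and output factors such as Dbp, so activators and outputs normally peak at opposite times of day. Of 19 tested genes 12 rose and 6 fell, and 16 were higher and 2 lower than at 7 d. Arntl had 53.2, 49.5 and 51.4 CPM in sham hearts and 3.12, 4.09 and 3.07 CPM at 28 d (log2 -3.90 ± 0.15, adjusted p = 1.08e-06). Npas2 went from 16.3, 15.4 and 16.2 to 2.46, 3.16 and 2.43 CPM, and Clock fell by 0.57. Per2 stood at 2.70, 3.49 and 4.65 CPM in sham hearts and 49.6, 53.3 and 82.6 CPM at 28 d (log2 4.09 ± 0.27, adjusted p = 8.11e-06). All activators were thus lower, and the repressors and outputs mostly higher, in every infarcted heart than in every sham heart.

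Dbp, an output factor that binds the D-box, rose from 8.11, 7.17 and 8.28 to 86.1, 81.6 and 96.6 CPM, as did its relatives Tef (0.95) and Hlf (0.80). Without sham replicate 1 the adjusted p of Hlf was 0.0546. Per1 rose by 2.73 and Per3 by 2.35, Nr1d2 by 1.63 and Nr1d1 by 0.97. Ciart, a repressor that binds the activators, rose by 2.86, and Bhlhe40 and Bhlhe41, which compete for the same element, rose by 1.49 and 0.93. Against these, Nfil3, which opposes Dbp at the D-box, fell by 1.57 and Cry1 by 0.61, while Cry2 did not pass (0.25, adjusted p = 0.0695, and 0.0236 without heart 3). Collection times were not given, so time of day and infarction cannot be told apart for these genes.

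**Figure D5:**
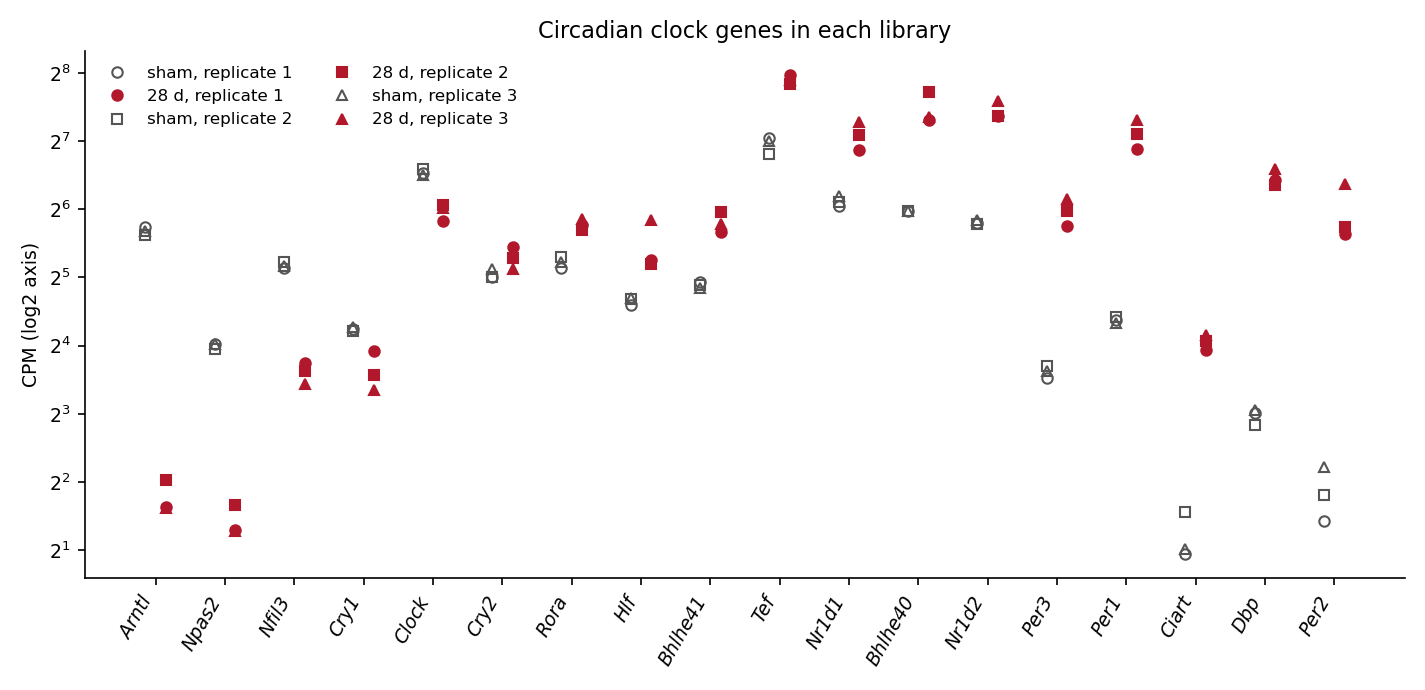
CPM of 18 clock genes on a log2 axis, ordered from the largest fall to the largest rise; open grey symbols are sham hearts, red symbols 28 d hearts, and the shape gives the replicate. For the genes at both ends, such as Arntl and Per2, the groups are far apart and the 3 hearts of each group close together.

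The plot of clock genes can be read beside their promoters. The E-box CACGTG, the element of the Arntl and Clock pair, was searched in the promoter sequences, which run past the start site. It was found for 5 of the 16 clock genes with a RefSeq entry, against 8.09% of all entries and 11.4% of those of tested genes. It reads the same on both strands. The 4 windows below are shown because their genes moved in both directions with the same element, in capitals, on GRCm38.p6. Tef lies on the plus strand and the others on the minus strand, each written 5′ to 3′ on the gene's strand.
Ciart, chr3:95882258-95882374: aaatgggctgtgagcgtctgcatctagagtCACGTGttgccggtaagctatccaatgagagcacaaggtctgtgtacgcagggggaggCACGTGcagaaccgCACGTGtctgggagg
Tef, chr15:81802516-81802581: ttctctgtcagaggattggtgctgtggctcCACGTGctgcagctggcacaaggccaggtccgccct
Bhlhe41, chr6:145865538-145865603: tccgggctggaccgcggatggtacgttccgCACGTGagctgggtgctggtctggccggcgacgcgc
Cry1, chr10:85185079-85185144: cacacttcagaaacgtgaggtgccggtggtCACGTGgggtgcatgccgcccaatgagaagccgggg
These windows stop before the gene body, so copies past the start site are not shown. Within them Ciart holds 3 copies and Tef, Bhlhe41 and Cry1 hold 1 each. Ciart, Tef and Bhlhe41 rose and Cry1 fell, and a link between copies and change was not tested. The D-box TTATGTAA was found for 1 of the 16 genes, against 1.11% of all entries. A match describes the letters of a window and shows neither binding nor a cause.

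Immediate early genes, which switch on within minutes of a stimulus, had 6 of 19 higher and 5 lower, near the shares of all genes tested (29.5% and 25.6%). Fos fell from 76.9, 67.0 and 57.5 to 8.56, 11.8 and 14.8 CPM, Fosb by 2.28 and Egr1 by 1.52. Nr4a3 rose from 2.36, 2.12 and 1.27 to 38.6, 19.2 and 31.1 CPM, Myc from 3.14, 4.14 and 3.30 to 17.9, 25.2 and 27.2 CPM and Ier3 by 1.97. Heat shock and unfolded protein genes had 10 of 26 higher and 8 lower, also near those shares. The inducible chaperone genes Hspa1a and Hspa1b, near-identical copies between which reads may be shared, were at no more than 3.23 CPM in sham hearts and at 53.8, 15.7 and 28.4 and 42.5, 15 and 31.5 CPM at 28 d. Hspa5, the main chaperone of the endoplasmic reticulum, fell by 0.73, and Hspb6, a small heat shock protein of muscle, by 0.89.

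Cell cycle genes rose in 25 of 40 and fell in 1, with a median of 0.72. Mki67, the marker of dividing cells, had 10.6, 11.9 and 12.5 CPM in sham hearts and 20.9, 25.9 and 14.0 CPM at 28 d (log2 0.80 ± 0.21, adjusted p = 0.00933), with heart 3 little above sham. Rrm2, which makes building blocks of DNA, rose by 1.27 and the S phase factor E2f1 by 1.5, whereas Cenpf, a centromere protein, fell from 26.4, 26.4 and 30.4 to 7.23, 12.5 and 5.21 CPM. Genes of apoptosis and necroptosis rose in 14 of 21 and fell in 2, led among the caspases by Casp12 (2.03). In the oxidative stress list 14 of 28 rose and 10 fell. The oxidase Nox4 rose by 3.49 and haem oxygenase, Hmox1, by 1.70, while the mitochondrial dismutase Sod2 fell from 762, 735 and 781 to 382, 267 and 215 CPM. Of 38 cytosolic ribosomal protein genes 12 rose, near the 29.5% of all genes tested, and 1 fell, against 25.6%, with a median of 0.15. The count of rises moved with the libraries and the scaling, to 4 without sham replicate 1 and to 32 with library size alone.

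The position of the 28 d heart between sham and the 7 d heart differed by gene group. This comparison uses the same 28 d libraries as the one with sham, so the values stand side by side. Against 7 d, 4173 genes were higher (29.1%) and 3747 lower (26.1%) at 28 d. All 30 sarcomere genes, all 34 complex I genes and all 25 genes of the tricarboxylic acid cycle were higher at 28 d than at 7 d, while most of them were below sham. Myh6 had 4469.9 CPM on average at 7 d, which the 28 d level exceeded by 1.79 on the log2 scale (adjusted p = 0.00043), and Atp2a2 had 1973 CPM (log2 1.75, adjusted p = 0.000373). Stress genes were higher at 28 d than at 7 d. Nppa averaged 9136 CPM at 7 d (log2 0.66, adjusted p = 0.0157), Nppb 389 CPM (log2 1.22, adjusted p = 6.06e-06) and Myh7 2345 CPM (log2 1.72, adjusted p = 0.00109). The 7 d mean of Nppb lay among its sham values. Of 18 genes of the stress list 14 were higher at 28 d than at 7 d and 1 was lower.

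Matrix and immune genes went the other way. Of 11 fibrillar collagen genes 10 were lower at 28 d than at 7 d, and Col1a1 had averaged 11892 CPM at 7 d (log2 -3.16, adjusted p = 3.17e-06). Of 21 activated fibroblast genes 17 were lower and 0 higher, and all 26 macrophage genes were lower, with Cd68 at 270.1 CPM at 7 d (log2 -3.21, adjusted p = 5.49e-07). The cartilage-like list did not follow the collagens, with 5 of 13 genes higher and 3 lower than at 7 d. Angptl7 averaged 58.3 CPM at 7 d (log2 1.98, adjusted p = 6.82e-05), and Cilp2, a cartilage matrix protein, 4.10 CPM (log2 2.01, adjusted p = 0.00148). Comp (713 CPM at 7 d) and Fmod (307 CPM) did not differ past the threshold between 7 d and 28 d. Endothelial genes were nearer their 7 d level, with 4 of 24 higher and 5 lower than at 7 d. Cell cycle genes were lower than at 7 d in 32 of 40 cases and higher in 3.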

How the data were processed

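Gene expression was measured by RNA sequencing of mouse heart, and samples were grouped by their titles. Total RNA was turned into libraries with a KAPA RNA HyperPrep kit, per the labels' protocols. Trim Galore, STAR, featureCounts and mm10 are named in the submitters' processing notes without versions, while the annotation, the strand setting and the handling of multi-mapping reads were not stated there. The values are whole-number counts per gene symbol as deposited by the authors, not normalized. Without a stated strand setting, overlapping genes cannot be told apart, and near-identical genes may share reads.

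With edgeR 4.0.16 in R 4.3.3, filterByExpr (minimum count 10, total 15) left 14347 of 24964 symbols, which were scaled by TMM. Genes near 0 in sham hearts, such as Rspo3 of the Wnt list and Cd8b1 of the T cell list, passed this filter only through infarct libraries. They could hardly be called lower, which raises the share of rises in lists that hold such genes. A quasi-likelihood model over all 9 libraries, with 1 mean for each group, was tested two-sided, with Benjamini-Hochberg adjustment at 0.05. Standard errors were taken as |log2 fold change| divided by the root of the F statistic. P-values rest on 1 spread per gene fitted over all 9 libraries, so they do not measure the spread within each group. As a biological coefficient of variation that spread was 2.73% in sham, 17.0% at 7 d and 24.2% at 28 d. The design text gives the 3 samples of a group as 3 mice, and 3 against 3 samples allow no exact permutation p under 0.1. On simulated counts for 14150 genes of 28 d against sham, the script recovered 67.3% of 98 genes changed by 2-fold and 92.9% of 99 changed by 4-fold, with 10 false calls. The simulation gave every group the same spread, unlike the sham and 28 d hearts. Its recovery and false calls therefore need not hold for these data.

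The members and the 60 gene lists (1244 entries, 1153 of them tested) were chosen with earlier results of these data known. Named genes were 13 markers, the 12 largest rises and falls (mean of at least 1 log2 CPM, groups apart, no Gm or Rik symbols), per list up to 4 members called in its main direction plus 2 called the opposite way, the most abundant and most variable genes and isoform pairs. Examples were picked from these after their values were seen, and so were further genes, such as most clock genes, the ligands Tgfb1 to Tgfb3 and the gap junction gene Gja1. Alternatives used DESeq2 1.42.0, limma 3.58.1 (voom), other scalings and filters, other call rules and fewer libraries. Promoters are those of RefSeq on GRCm38.p6 (24345 symbols matched).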

Additional observations from a re-analysis of the deposited data

Results flagged for a closer look

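For the 13 marker genes the change from sham differed between 7 d and 28 d, which was tested directly as the difference between the 28 d and the 7 d hearts in the same edgeR model. The log2 difference, 28 d minus 7 d, was 0.66 for Nppa (adjusted p = 0.0157), 1.22 for Nppb (6.06e-06) and 1.72 for Myh7 (0.00109), which were above sham at 28 d. It was 1.79 for Myh6 (0.00043), 1.75 for Atp2a2 (0.000373) and 2.04 for Ppargc1a (1.26e-05), which were below sham. For Acta1, which did not differ from sham at 28 d past the threshold, it was 2.16 (0.0113).

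The difference was negative for the matrix and immune markers and for the marker of dividing cells. It was -3.16 for Col1a1 (adjusted p = 3.17e-06), -2.36 for Col3a1 (4.68e-05), -2.92 for Postn (5.45e-06), -1.12 for Acta2 (4.49e-05), -3.21 for Cd68 (5.49e-07) and -1.66 for Mki67 (0.000103). The 3 hearts of each group did not overlap between the times for Myh6 and Col1a1, and groups of 3 samples were not searched for outlying samples.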

How the results depend on the processing

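Besides the values above, the 2-fold threshold (glmTreat) left 831 rises and 284 falls, library size alone gave 6479 and 2278, and sham summed to 1 gave 1828 and 1889 with 15194 genes tested. That last setting left 1 sham sample and ended the calls of 88 of 344 named genes, Acta2, Mki67, Des, Ryr2, Pecam1, Rgs5, Dcn and Wt1 among them. DESeq2 gave 3877 and 3860, and voom, both filters and the fit of 6 libraries gave 3861 to 4179 and 3443 to 3635. Leaving out 1 library gave 3345 to 4374 rises and 3177 to 3837 falls against sham, and 3738 to 4285 and 3261 to 4228 against 7 d. With a replicate block the counts were 4082 and 3606 against sham and 4116 and 3669 against 7 d. The numbers do not pair samples: deviations of same-numbered libraries correlated at 0.0086, -0.022 and -0.025 (28 d and sham) and at -0.091, 0.26 and 0.30 (28 d and 7 d), and 1 and 3 of 6 libraries correlated best with their own number. DESeq2-type scaling kept 96.8%, library size alone 82.4% and sham summed to 1 46.6% of the genes first called.

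The sign turned in 11 values of single genes, and the cause was not tested. With library size alone Gja1 was at 0.011 and Ldha at 0.13. Without the Adipoq-rich libraries, which leaves 1 heart at 28 d, Adipoq was at -1.17, Car3 at -0.55, Cfd at -0.56, Cidec at -0.30, Fcna at -0.92 and Ldha at 0.012. Leaving out 1 library, Acta1 ranged from -1.48 to 0.12 and Ckb from -0.067 to 0.21, with Acta1 at 0.065 and Ckb at -0.067 without heart 2 of 28 d. With 3 hearts a group, library totals from 12351525 and no batch in the labels, small changes in genes that varied between hearts could be missed. The low spread of the sham hearts enters each call, so a called change can also be small beside the spread at 28 d.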

Other observations

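Of 13495 protein-coding genes tested 4045 were higher and 3481 lower at 28 d than in sham, and of 490 long non-coding RNA genes 96 were higher and 101 lower. Of 6 tested genes of an atrial cardiomyocyte list 5 were higher and 1 lower, with a summed level of 1418 to 1525 CPM in sham hearts and of 13391 to 19437 CPM at 28 d. At 28 d Nppa, which the ventricle under load is also known to make, held most of that sum with a mean of 14479 CPM, against 500.3 CPM in sham, where Pam held most of it (928 CPM). The defining atrial genes Myl7, Sln and Bmp10 were at no more than 1.10 CPM in the 6 libraries. Of 5 tested skeletal muscle genes 1 was higher and 1 lower, and Myh4, a fast skeletal myosin, was at most 0.0620 CPM in the 6 libraries. The AP-1 element TGACTCA was searched on both strands of the promoter sequences, which run past the start site. It was found for 3 of 19 fetal and stress genes and 0 of 16 clock genes, against 5.95% of all entries.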
